A study of Mus musculus with 24 samples.

Results

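HBC-3 mouse hepatoblasts after 7 days on Matrigel were compared with the same line at day 0, over 6 of the 24 arrays of the series: the 3 titled time 7 (arrays A, B and C) and the 3 titled time 0 (A, B and C). HBC-3 is a single line of fetal liver precursor cells able to become hepatocyte-like or duct-like. Day 7 cells had been kept on Matrigel, which is a gel made of basement membrane. Day 0 cells were undifferentiated, had been stripped of their feeder layer of STO fibroblasts with trypsin and replated on plastic, and were harvested the next morning without Matrigel, per the labels' protocols. On every array the sample was labelled with Cy5 and hybridised together with Cy3-labelled RNA of undifferentiated HBC-3, and no label mentions a dye swap. Both channels of the day 0 arrays thus came from undifferentiated cells. Values are read as log2 of sample over reference, a likely reading that no label states, so that 0 means the level of the undifferentiated reference. Day 7 was compared both with day 0 and with this zero. The labels do not tell whether each array had a culture of its own. The p-values rest on the spread between arrays of the same day, pooled over all 24 arrays, and that spread may be technical.

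Hepatoblasts are the precursors of hepatocytes and of the cells that line bile ducts. Hepatocytes secrete most plasma proteins, burn fatty acids in mitochondria and peroxisomes, and respond to cytokines of the interleukin-6 family through the receptor chain gp130, Janus kinases and STAT3. Contact with basement membrane is known to slow division of epithelial cells and to reorganise their actin skeleton and their matrix receptors.

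The day 7 arrays held 17456, 16163 and 15493 values of 24157 features, and the day 0 arrays 19189, 16040 and 15310. Deposited medians were 0.0137, -0.0253 and 0.0075 for the day 7 arrays, against 0.0118, -0.0052 and 0.0005 for the day 0 arrays, in the order A, B, C. Each array was centred on its median, which leaves the scale, the authors' own centring and the direction unknown beyond the reading above. Across the units tested (genes, or features without a single gene name), the correlation between day 7 arrays was 0.75 for the pair A, B, 0.55 for A, C and 0.51 for B, C. Between day 0 arrays it was 0.78 for A, B, 0.06 for B, C and -0.36 for A, C. Day 7 array A correlated at -0.33 with both day 0 arrays A and B, and day 7 array B at -0.35 with both, although all ran in the same dye orientation. The direction of the deposited ratios is thus not settled by the data, and counts are also given with every day 0 array's sign turned. Calls that pass against day 0, against the zero of the reference and with the day 0 sign turned are described as past all 3 readings. These correlations are across units, which are not independent replicates.

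Of fixed markers of hepatocytes and hepatoblasts, 2 of 15 could be tested, too few to judge the cell type, and a log ratio does not show whether a gene is present. The fetal liver gene Afp rose, a call lost with the day 0 sign turned, and Apob stood at -0.38 (adjusted p = 0.116, limma). Of 7 fibroblast markers tested, 3 rose and 0 fell (Dcn, Pdgfrb and Prrx1). Their median was 0.62, 0.46 and 0.40 on the day 7 arrays A, B and C, against -0.88, -0.55 and 0.11 on those of day 0. The part of remaining feeder cells in the results was not tested. Of 3 blood cell markers 1 rose, Tyrobp, which had no value on day 0 array C, and of 3 bile duct markers 1 rose, Anxa4. Of 2 smooth muscle and stellate cell markers 1 rose and 1 fell, and the 1 endothelial marker tested did not pass. Among all genes tested 16% rose and 11.1% fell, and these sets are too small to set against such shares. In these bulk samples fewer cells of a type and less RNA per cell cannot be told apart.

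Day 7 was tested both against day 0 and against the zero of the reference. Of 10639 units tested with limma, 2940 passed against day 0 at an adjusted p of 0.05 (27.6%), 1552 of them higher at day 7 (14.6%) and 1388 lower (13%). Against zero 3733 units passed (35.1%), 1880 higher (17.7%) and 1853 lower (17.4%). Past both in the same direction were 2640 units (24.8%), 1384 higher (13%) and 1256 lower (11.8%). Both tests use the same 3 day 7 arrays, so part of this overlap is built in and passing both is no independent support. Among the 5660 genes, 1538 passed against day 0 (27.2%), 907 higher (16%) and 631 lower (11.1%), and 1396 passed both (24.7%), 814 of them higher (14.4%) and 582 lower (10.3%). Against zero 1987 genes passed (35.1%), 1111 higher (19.6%) and 876 lower (15.5%). None was called in opposite directions against the 2 baselines. The day 7 and day 0 arrays did not overlap for 3705 of 9349 units with a value on all 6 arrays (39.6%), and for 2053 of 5114 genes (40.1%). Day 0 itself was set against zero too, where 1 unit of 10639 passed (0.0094%; 0.0177% of genes), Trp53inp1, with a day 0 mean of -1.35 (adjusted p = 0.0438) and values on day 0 arrays A and B only. That contrast was added after the data were seen.

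The baselines differed in what they let through. In genes called against both, day 0 carried a median of 17.8% of the difference, and in the 142 genes called against day 0 but not against zero it carried 50.3%. Sorting genes by these tests itself favours such a gap. A further 591 genes passed against zero only. The median standard error was 0.302 against day 0 and 0.214 against zero. With every day 0 array's sign turned, 520 of the 1538 genes were past all 3 readings, 302 higher and 218 lower, and 1 gene was called in the opposite direction. The call counts leaned on single arrays: 1616 units passed when day 0 array B was left out, 1874 when day 0 array A was and 2014 when day 7 array C was.

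**Figure D1:**
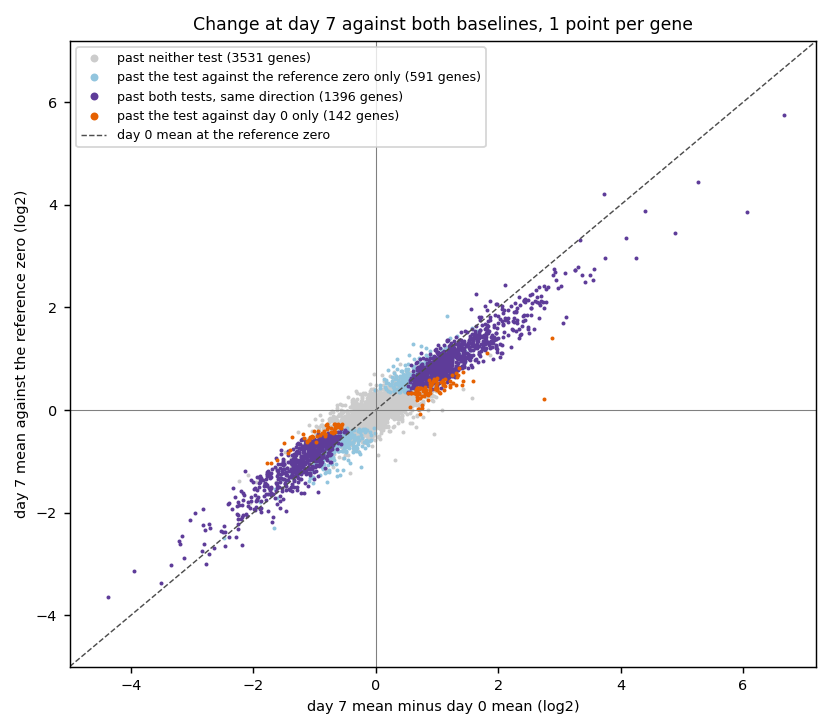
Each point is 1 of 5660 genes, with the day 7 mean minus the day 0 mean on the x axis and the day 7 mean against the zero of the reference on the y axis (both log2). The 1396 genes past both tests lie along a line flatter than the dashed one, on which a gene with a day 0 mean of 0 would fall. The 142 genes past the test against day 0 only lie nearer to the horizontal zero line, which failing the test against zero favours.

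Beyond the 8 largest rises, the genes at ranks 9 to 24 rose by 2.75 to 3.41 (log2), and 15 of these 16 also passed against zero. Complement, detoxification and energy genes were among them. C1ra, which encodes the complement protease C1r, stood at 2.42, 2.39 and 2.48 on the day 7 arrays A, B and C, against -0.59, -0.93 and -0.28 on those of day 0. This is a rise of 3.02 ± 0.39 (adjusted p = 2.15e-05, limma, n = 3 arrays per day), with day 7 arrays almost equal. Mgst1, a membrane-bound glutathione transferase, stood at 1.99, 2.89 and 2.71 at day 7, against -0.59, -0.64 and -0.02 at day 0, a rise of 2.95 ± 0.35. Ldhb, the heart-type subunit of lactate dehydrogenase, stood at 2.34, 3.20 and 2.66 at day 7, against -1.11, -0.74 and 0.27 at day 0. These ranks were counted only among genes whose day 7 and day 0 arrays do not overlap, so that separation was set by the choice. P2rx4, an ATP-gated ion channel found at the plasma membrane and in lysosomes, rose by 2.93 ± 0.27 (adjusted p = 8.52e-07), the smallest adjusted p of these 16 genes. Sesn1, a stress-induced inhibitor of growth signalling, rose by 3.08 ± 0.36, with day 0 arrays at -0.47, -0.45 and -0.34. Against the zero of the reference, day 7 means were 2.43 for C1ra, 2.53 for Mgst1, 2.73 for Ldhb, 2.68 for P2rx4 and 2.66 for Sesn1.

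H19, an imprinted noncoding RNA of fetal liver, stood at 2.55, 5.29 and 2.11 on the day 7 arrays A, B and C, against 0.03, -0.35 and 0.25 on day 0 arrays, so its size (3.34 ± 0.84) leans on array B. Over days 1 to 7 its mean was 1.00, 2.81, 3.48, 4.44, 4.01, 2.56 and 3.31. Fzd1, a Wnt receptor, was likewise highest on a single array, at 1.67, 2.15 and 4.09 at day 7 against -1.19, -0.92 and -0.10 at day 0. Plat, tissue plasminogen activator, stood at 2.26, 3.19 and 0.85 at day 7 and at -0.61, -1.19 and -0.23 at day 0. The neighbouring genes Tmem176a and Tmem176b, which encode related membrane proteins, rose by 2.90 and 2.75, and Mgp, a matrix inhibitor of calcification, by 2.90. Ctla2b, Pxylp1, Chst11 (a chondroitin sulfotransferase) and Abhd4 rose by 2.79 to 3.41. With the sign of day 0 turned 12 of the 16 still passed, and Ctla2b, Fzd1, Plat and the alarmin gene Il33 did not. Il33 also lost its call without day 0 array B or day 7 array C. Day 7 means against zero were 2.64 for Fzd1, 2.10 for Plat, 2.74 for Tmem176a, 2.41 for Tmem176b, 2.64 for Mgp and 2.497 for Ctla2b. Set against zero, the day 7 arrays averaged 2.74 for Pxylp1, 2.40 for Chst11, 2.35 for Abhd4 and 1.40 for Il33.

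The genes at ranks 9 to 24 among those that fell did so by 2.39 to 2.82, and all 16 also passed against zero. Prss23, a secreted serine protease, stood at -2.76, -3.75 and -2.47 at day 7, against -0.21 on each day 0 array, and Ahnak, a giant scaffold protein under the plasma membrane, at -3.06, -2.87 and -2.00 against -0.04, 0.01 and -0.50. Both lay far below the reference on every day 7 array. The fall of Prss23 was deepest early, with means of -3.70, -4.51, -4.36, -3.78, -3.17, -3.43 and -2.99 over days 1 to 7. Upk1b, a uroplakin of urothelium and mesothelium, showed a like order, with -3.80, -4.28, -4.41, -3.62, -2.89, -2.27 and -2.69. Msln, the mesothelial surface protein mesothelin, stood at -0.74, -2.29 and -3.73 on day 7 arrays and at 0.03, 0.42 and 0.22 on day 0 arrays. Cryab, a small heat shock protein, fell by 2.71 ± 0.40, Crip1 by 2.46 ± 0.42 and the stress-response factor gene Csrnp1 by 2.79 ± 0.52. E2f7, a repressor of E2F target genes, fell by 2.39 ± 0.33. Relative to the reference, day 7 stood at -2.65 for Ahnak, -2.26 for Msln, -2.29 for Cryab, -2.37 for Crip1, -2.33 for Csrnp1 and -1.81 for E2f7.

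Pfas, an enzyme of purine synthesis, fell by 2.72 ± 0.65, but its day 0 arrays spread widely, at -1.95, -2.05 and -2.64 on day 7 arrays against 1.72, 0.89 and -1.10 on those of day 0. Hnrnpf, a splicing regulator, stood at -1.94, -0.58 and -2.99 at day 7, against 0.61, 0.82 and 0.31 at day 0. Actb and the integrin gene Itga3 fell by 2.82 each, and Tmsb4x, of the actin-binding peptide thymosin beta-4, fell by 2.52. The 16 also held 3 genes of the interferon response, Bst2, Rsad2 and Zbp1, described further on. With the sign of day 0 turned 10 of the 16 still passed, and Actb, Bst2, Hnrnpf, Itga3, Msln and Pfas did not. Without day 7 array C the calls of Actb, Bst2 and Msln were lost, and those of Actb and Bst2 also without day 0 array A or B. Measured from the reference zero, day 7 means were -2.21 for Pfas, -1.83 for Hnrnpf, -2.24 for Actb, -1.92 for Itga3, -2.36 for Tmsb4x and -2.62 for Bst2. The day 7 arrays averaged -2.81 for Rsad2, -2.47 for Zbp1 and -2.26 for Msln against zero.

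**Figure D2:**
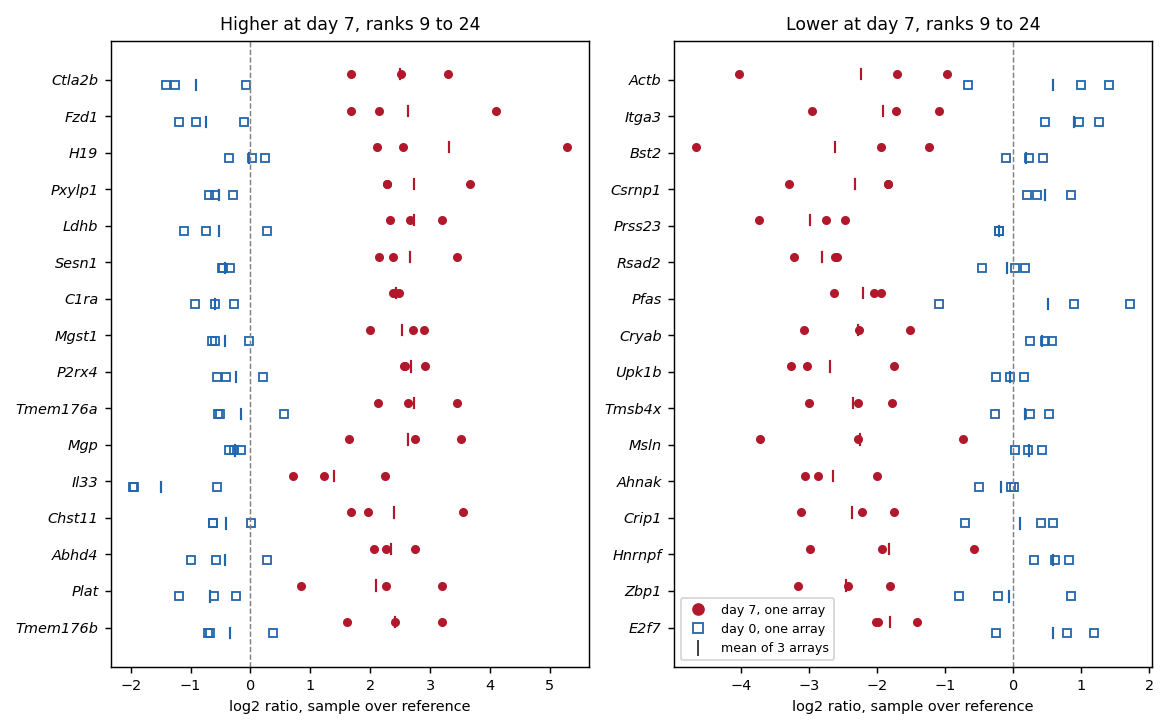
Log2 ratios of sample over reference on each array for the 16 genes at ranks 9 to 24 among those higher at day 7 (left) and those lower at day 7 (right), with filled circles for day 7 arrays, open squares for day 0 arrays and a bar for each mean of 3. No gene's groups overlap because ranks were counted among such genes only. The dashed line is the zero of the reference, to which Hnrnpf comes closest at day 7 with -0.58 on array B.

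Genes were then sorted by function into 66 lists, and members that passed against day 0 were counted beside the share over all genes tested, 16% higher and 11.1% lower. Over all genes the median change was 0.07 against day 0 and 0.04 against zero. Shares of higher members were far above this background in the lists of the lysosome, plasma proteins, autophagy, fatty acid oxidation and the vacuolar ATPase. Shares of lower members were far above it in those of mitosis, nucleotide synthesis, DNA replication, ribosome biogenesis, nuclear transport and the mitochondrial ribosome. These counts carry no test of the list as a whole.

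**Figure D3:**
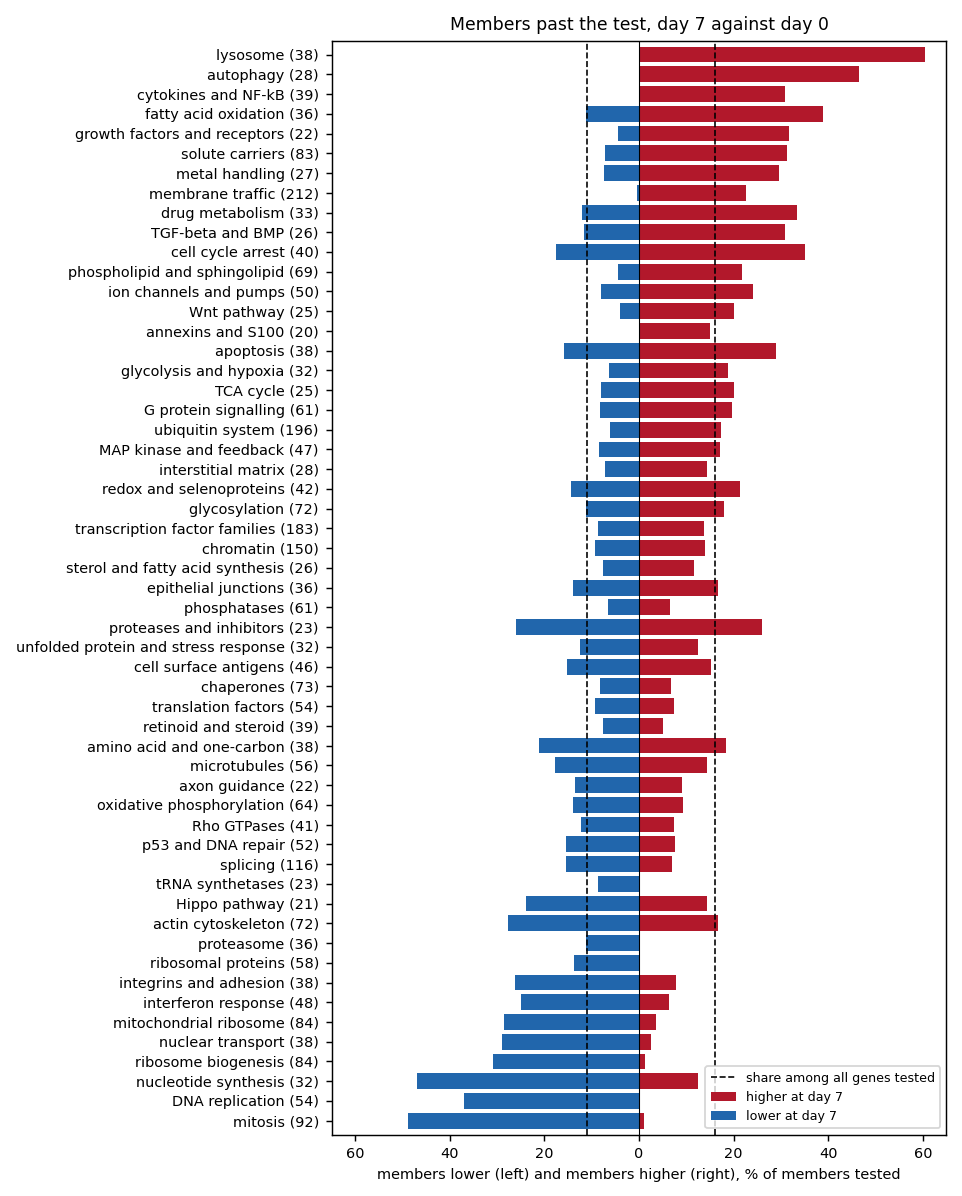
Share of tested members that were higher (red, to the right) or lower (blue, to the left) at day 7 against day 0, for the 55 lists with at least 20 tested members, whose number stands in brackets. Dashed lines mark the share among all genes, 16% higher and 11.1% lower, and the lysosome and mitosis lists stand at the ends.

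Of 64 genes of cytokine and NF-kB signalling on the array 39 were tested, and 12 rose and 0 fell, with a median of 0.42. No list of the interleukin-6 family alone was counted. Osmr, the oncostatin M receptor, stood at 0.85, 1.42 and 3.26 on the day 7 arrays A, B and C, against -0.39, -0.32 and 0.26 at day 0, a rise of 1.99 ± 0.58 (adjusted p = 0.015, limma). Il6st, the shared chain gp130, stood at 2.22, 1.02 and 2.31 at day 7, against -0.19, -0.17 and 0.05 at day 0, a rise of 1.95 ± 0.36 (adjusted p = 0.000637). For both receptor chains every day 7 array lay above every day 0 array. Day 7 and day 0 arrays lay apart for 40.1% of genes with values on all 6, and naming genes by large changes favours this. The day 7 means of Osmr and Il6st against zero, 1.84 and 1.85, passed as well, and Osmr was already at 1.66 at day 1 while Il6st stood at 0.42, 1.01, 1.19, 1.56, 1.26 and 1.77 over days 1 to 6. Socs3, the feedback inhibitor of this pathway, stood at 1.13, 1.82 and 0.72 at day 7, against -0.82, -0.64 and 0.17 at day 0. With the day 0 sign turned it stood at 0.80 (adjusted p = 0.286, limma) and its call was lost. Chosen after their values were seen, the Janus kinase genes Jak1, Jak2 and Tyk2 rose by 1.35, 1.22 and 0.81, and Stat3 by 1.25. Other tested members of the STAT and SOCS families are not given here, so these picks do not describe a pathway. Of the 12 that rose, 10 also passed against zero and 4 were past all 3 readings, Il6st among them and Osmr not. With 1 of the 6 arrays left out, 7 (without day 0 array A or B) to 13 rose. Against the zero of the reference, day 7 means were 1.22 for Socs3, 1.12 for Jak1, 0.93 for Jak2, 0.80 for Tyk2 and 1.10 for Stat3.

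More transcripts in the list of the interferon response fell than rose. This response is the set of antiviral genes switched on by type I interferon. The list used was drawn by gene name and is wider, with Trim28, Trim33, Irf2bp1 and Isg20l2 among its members. Of 64 members on the array 48 were tested, and 12 fell and 3 rose, all 15 also past the test against zero, with a list median of -0.20. Rsad2, which encodes the antiviral enzyme viperin, stood at -2.60, -2.63 and -3.22 on day 7 arrays, against -0.46, 0.02 and 0.16 on day 0 arrays, a fall of 2.72 ± 0.38 (adjusted p = 5.88e-05, limma). Xaf1, a pro-apoptotic interferon target, stood at -2.56, -2.07 and -2.78 at day 7 and at -0.93, 0.02 and 0.35 at day 0. Usp18, the protease that removes the ubiquitin-like modifier ISG15, fell by 2.26 ± 0.34, and Zbp1, a sensor of Z-form nucleic acids, by 2.41 ± 0.60. Over all genes with values on all 6 arrays, day 7 and day 0 lay apart for 40.1%. For Xaf1 and Usp18 every day 7 array lay below every day 0 array. The same held for Rsad2 and Zbp1 by their choice among genes without overlap. Bst2, the virus-tethering protein tetherin, was lowest on array C, at -1.95, -1.24 and -4.67 at day 7 against -0.11, 0.23 and 0.43 at day 0, and its call was lost without any 1 of the day 0 arrays or day 7 array C. Day 7 means against zero were -2.81 for Rsad2, -2.47 for Xaf1, -2.06 for Usp18, -2.47 for Zbp1 and -2.62 for Bst2.

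The fall of Rsad2 was present at day 1, with means of -2.21, -1.84, -2.48, -2.11, -2.25, -2.20 and -2.81 over days 1 to 7. That of Zbp1 came later, with -1.06, -0.02, -0.76, -1.13, -2.20, -1.91 and -2.47. Chosen after their values were seen, Isg20, Parp12, Gbp2, Oas2, Samd9l and Oas1b fell by 1.80, 1.63, 1.31, 1.18, 1.16 and 0.92, while Irf1, a transcription factor of both interferon types, rose by 1.82. By families named after their values were seen, 1 of 3 Gbp genes fell and 1 rose, Gbp8, and 2 of 4 Oas genes fell and 0 rose. Of the 12 that fell 8 were past all 3 readings, and of the 3 that rose 0 were. With 1 of the 6 arrays left out 8 to 12 fell and 2 to 4 rose. Set against zero, the day 7 arrays averaged -1.75 for Isg20, -1.57 for Parp12, -1.24 for Gbp2, -1.01 for Oas2, -1.42 for Samd9l, -0.59 for Oas1b and 1.31 for Irf1.

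The promoters of Rsad2 and Bst2 are shown because each holds the letters of an interferon-stimulated response element within 250 bases before to 50 bases after the annotated start, written 5′ to 3′ on the gene's strand from RefSeq on build GRCm38.p6. Capitals mark GAAA, any 2 bases and GAAA again, searched on both strands, a search added after the data were seen. The match in Rsad2 lies on the opposite strand, and in Bst2 a pair of matches overlaps.
Rsad2 promoter, chr12:26456403-26456702 (- strand): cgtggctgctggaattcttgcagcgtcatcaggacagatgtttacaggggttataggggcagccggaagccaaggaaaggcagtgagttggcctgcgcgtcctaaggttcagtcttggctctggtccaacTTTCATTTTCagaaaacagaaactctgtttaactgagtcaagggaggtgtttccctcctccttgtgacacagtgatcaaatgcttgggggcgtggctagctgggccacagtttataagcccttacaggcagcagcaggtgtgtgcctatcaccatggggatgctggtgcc
Bst2 promoter, chr8:71537423-71537722 (- strand): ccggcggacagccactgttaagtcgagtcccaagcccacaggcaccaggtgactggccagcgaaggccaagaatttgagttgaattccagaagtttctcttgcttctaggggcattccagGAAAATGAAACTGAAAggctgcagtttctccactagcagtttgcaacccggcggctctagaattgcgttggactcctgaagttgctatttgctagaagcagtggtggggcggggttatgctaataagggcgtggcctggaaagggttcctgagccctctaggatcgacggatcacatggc
Of 10 promoters of members that fell 3 held this motif (30%), as did 1131 of all 32851 promoters (3.44%). A match is a description of letters, and the Xaf1 promoter held none.

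Several transcripts of secreted plasma proteins rose. Of 27 on the array 15 were tested, and 8 rose and 0 fell, all 8 also against zero and 6 past all 3 readings, with a median of 0.97. Chosen after their values were seen, Serping1, the inhibitor of C1r and C1s, rose by 2.53, Masp1, a protease of the lectin pathway of complement, by 1.55, and Serpinf1 by 0.97. C1ra rose too, while the complement genes Cfi and C1qb, tested in the same list, stood at 0.31 and -0.17 and did not pass. Afp rose by 1.93 ± 0.69 (adjusted p = 0.0427, limma), a call lost with the day 0 sign turned, where it stood at 0.78 (adjusted p = 0.522, limma). Its day 7 arrays stood at 0.61, 2.65 and 0.81, against -0.37, -0.80 and -0.56 at day 0, and array B was the highest at day 7 for Afp, H19 and Igf2 alike. Igf2, the fetal growth factor, stood at 0.81, 2.65 and 1.05 at day 7 and at -0.16, -0.41 and -0.32 at day 0. Its call against day 0 was likewise lost with the sign turned, where it stood at 1.21 (adjusted p = 0.201, limma). Fcgrt, the receptor that protects albumin and IgG from breakdown, rose by 2.29 ± 0.43, and B2m, its light chain, by 0.89 ± 0.28. With 1 array left out, 6 or 7 plasma protein genes rose and 0 or 1 fell. Measured from the reference zero, day 7 means were 1.86 for Serping1, 1.97 for Masp1, 0.99 for Serpinf1, 2.43 for C1ra, 1.36 for Afp and 3.31 for H19. At day 7 the mean against zero was 1.503 for Igf2, 1.91 for Fcgrt and 0.74 for B2m.

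Many transcripts of the lysosome and of autophagy rose, and none of those tested fell. Of 38 lysosomal transcripts tested (44 on the array) 23 rose and 0 fell, with a median of 1.17; 22 also passed against zero and 16 were past all 3 readings. Manba, the beta-mannosidase of glycoprotein breakdown, stood at 1.82, 1.73 and 2.75 at day 7, against -0.69, -0.98 and -0.21 at day 0. Lamp2, a major protein of the lysosomal membrane, stood at 1.80, 2.04 and 2.51 at day 7 and at -0.57, -0.63 and -0.26 at day 0. Ctsl, the protease cathepsin L, stood at 1.90, 2.44 and 1.61 at day 7 and at -1.38, -1.11 and 0.22 at day 0. The groups of all 3 genes lay apart, as did those of 40.1% of all genes with values on all 6 arrays. Of 13 subunits and partners of the vacuolar proton pump, which acidifies lysosomes, 5 rose and 0 fell, with Atp6ap2 at 2.68 ± 0.35 and Atp6v0d1 at 1.503 ± 0.26. All 5 also passed against zero, 2 were past all 3 readings, and 4 to 6 rose with 1 array left out. Of 28 autophagy transcripts 13 rose and 0 fell, all 13 also against zero and 5 past all 3 readings. Bnip3l, a receptor that marks mitochondria for autophagy, rose by 2.67 ± 0.26, Map1lc3b, of the membrane-bound autophagosome protein LC3, by 2.25 ± 0.31, and the cargo receptor gene Nbr1 by 1.77 ± 0.29. With 1 array left out 17 to 22 lysosomal and 8 to 13 autophagy transcripts rose, fewest in both without day 0 array B. Against the zero of the reference, day 7 means were 2.10 for Manba, 2.12 for Lamp2, 1.99 for Ctsl, 2.06 for Atp6ap2, 1.30 for Atp6v0d1 and 2.09 for Bnip3l. Day 7 means against zero were 1.56 for Map1lc3b and 1.42 for Nbr1.

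Of 212 transcripts of membrane traffic tested (272 on the array) 48 rose and 1 fell, which is 22.6% and 0.472% against 16% and 11.1% among all genes. This list was drawn by gene name and also holds genes of other functions, such as Snapc1 and Vps72. Vps35l, of a complex that recycles cargo from endosomes, rose by 1.77 ± 0.32, Golph3l, a Golgi protein, by 1.92 ± 0.42 and Golga7 by 1.67 ± 0.47. By subgroups named after their values were seen, 5 of 8 ESCRT-III subunits, which cut off vesicles inside endosomes, rose and 1 fell, Chmp1a by 0.89. Of 27 Rab GTPases 7 rose and 0 fell, and of 16 sorting nexins 5 rose and 0 fell. Of the 48 that rose 42 also passed against zero and 17 were past all 3 readings. Fewest rose, 35, without day 0 array A or B, when 0 fell. Set against zero, the day 7 arrays averaged 1.46 for Vps35l, 1.39 for Golph3l, 0.94 for Golga7 and -0.72 for Chmp1a.

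The Ctsl promoter is shown because it holds CACGTG, the core of the element through which the factor TFEB acts on lysosomal genes, in capitals; it is written from RefSeq on GRCm38.p6.
Ctsl promoter, chr13:64370471-64370770 (- strand): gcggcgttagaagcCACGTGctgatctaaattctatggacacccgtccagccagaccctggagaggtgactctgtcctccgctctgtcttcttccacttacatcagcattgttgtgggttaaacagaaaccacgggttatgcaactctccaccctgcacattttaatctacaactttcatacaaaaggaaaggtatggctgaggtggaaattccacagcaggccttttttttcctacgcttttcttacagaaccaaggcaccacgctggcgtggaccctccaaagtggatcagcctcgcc
Of 20 promoters of lysosomal genes that rose, with values on all 6 arrays, 6 held CACGTG (30%), as did 2349 of all 32851 promoters (7.15%). Those of Manba and Lamp2 did not hold these letters.

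Mitochondrial transcripts went in both directions by function, and several of fatty acid oxidation rose. Of 36 tested (45 on the array) 14 rose and 4 fell, with a median of 0.82, and 14 and 3 also passed against zero. Cpt1a, the carnitine transferase that admits fatty acids to mitochondria, stood at 1.43, 1.29 and 2.99 on day 7 arrays, against -0.63, -0.34 and -0.09 on day 0 arrays, a rise of 2.26 ± 0.49 (adjusted p = 0.00249, limma). Acadm, the medium-chain acyl-CoA dehydrogenase, stood at 1.53, 1.11 and 1.43 at day 7, against -0.86, -0.82 and 0.12 at day 0. Hadhb, a subunit of the trifunctional protein, stood at 1.30, 0.70 and 1.70 at day 7 and at -1.03, -0.999 and 0.03 at day 0. For both genes day 0 arrays A and B lay below the reference and array C lay close to it. Day 0 carried 35.1% of the change of Hadhb and 27.8% of that of Acadm, and these calls were lost with the day 0 sign turned, when Cpt1a still passed. Cpt1a was at 1.44 at day 1 and 1.83 at day 6, while Hadhb had means of 0.25, 0.52, 0.79, 0.77, 0.90, 0.86 and 1.23 over days 1 to 7. Relative to the reference, day 7 stood at 1.91 for Cpt1a and 1.36 for Acadm.

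Chosen after their values were seen, Crot, of the peroxisomal carnitine transferase, rose by 1.71, Cpt2 by 1.28, Acadl by 1.21, the electron carrier gene Etfdh by 1.15 and Plin2, which coats lipid droplets, by 1.70. Among the members that fell, Mgll, a lipase of monoglycerides, did so by 2.11 ± 0.49. The thioesterase genes Acot10, Acot9 and Acot7, which free fatty acids from coenzyme A, fell by 0.73, 0.72 and 0.69. Past all 3 readings were 4 risers and 3 fallers. Without day 0 array A 9 rose, and with any other array left out 11 to 16 did. Only 2 fell without day 0 array B or C or day 7 array B or C. Of 25 transcripts of the citric acid cycle and pyruvate entry 5 rose and 2 fell, with the cytosolic isocitrate dehydrogenase gene Idh1 at 2.63 ± 0.35, Mdh2 at 1.74 ± 0.31 and Sdha at 1.32 ± 0.37, and the phosphatase gene Pdp2 at -0.999 ± 0.30, and 2 rose without day 0 array A. With any other array left out 3 to 6 of these rose, and 0 fell without day 0 array A or B or day 7 array A. Past all 3 readings were 1 riser and 0 fallers. Measured from the reference zero, day 7 means were 1.45 for Crot, 1.22 for Cpt2, 0.83 for Acadl, 0.73 for Etfdh, 1.06 for Plin2, -2.03 for Mgll and -1.02 for Acot10. The day 7 arrays averaged -0.76 for Acot9, -0.39 for Acot7, 2.33 for Idh1, 1.21 for Mdh2, 1.14 for Sdha and -0.70 for Pdp2 against zero. Acot7 did not pass against zero.

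Many transcripts of the mitochondrial ribosome fell. This ribosome translates the proteins that mitochondrial DNA encodes. The list counted also covers mitochondrial protein import, fusion and proteases, and by its name took in Mfng of the Notch pathway. Of 84 members tested (94 on the array) 24 fell and 3 rose, with a median of -0.42, and the same numbers passed both baselines. Of the 48 that encode proteins of the ribosome itself 19 fell and 0 rose. Mrps28 stood at -1.16, -0.88 and -1.55 on day 7 arrays, against 0.61, 1.01 and 0.05 on day 0 arrays, a fall of 1.76 ± 0.33 (adjusted p = 0.000793, limma). Mrpl55 stood at -1.14, -0.45 and -1.97 at day 7 and at 0.22, 0.74 and 0.30 at day 0, and Mrpl57 at -1.64, -0.85 and -0.66 against 0.69, 0.80 and -0.14. Array B was the mildest at day 7 for the first and the second of these, and the list's median was -0.37, -0.01 and -0.55 on the day 7 arrays A, B and C, against 0.12, 0.26 and 0.07 on day 0 arrays. The fall of Mrps28 was gradual, with means of 0.07, -0.14, -0.57, -0.91, -0.99, -1.23 and -1.20 over days 1 to 7. Past all 3 readings were only 3 of the 24, though all 24 passed against zero. Most calls were lost with the day 0 sign turned, where Mrps28 stood at -0.64, Mrpl55 at -0.77 and Mrpl57 at -0.60. Without day 7 array C 15 fell, and with any other array left out 16 to 28, while 1 rose without day 0 array A or B and 5 without day 0 array C. Against the zero of the reference, day 7 means were -1.19 for Mrpl55 and -1.05 for Mrpl57.

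Of 64 transcripts of oxidative phosphorylation 9 fell and 6 rose, which is 14.1% and 9.38% against 11.1% and 16% among all genes. Past all 3 readings were 2 fallers and 1 riser. Cycs, cytochrome c, fell by 1.51 ± 0.21 with day 7 arrays at -1.19, -1.08 and -1.19 against 0.61, 0.67 and -0.18 at day 0, and Atp5g1, a subunit of ATP synthase, by 1.35 ± 0.46. Ndufaf2, an assembly factor of complex I, rose by 1.84 ± 0.29 and its subunit gene Ndufs1 by 1.33 ± 0.44. Leaving out day 0 array A left 1 riser and 5 fallers, day 0 array B 2 and 4, day 7 array C 5 and 4, and day 7 array B 5 and 16. Day 7 means against zero were -1.15 for Cycs, -0.99 for Atp5g1, 1.49 for Ndufaf2 and 0.84 for Ndufs1.

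**Figure D4:**
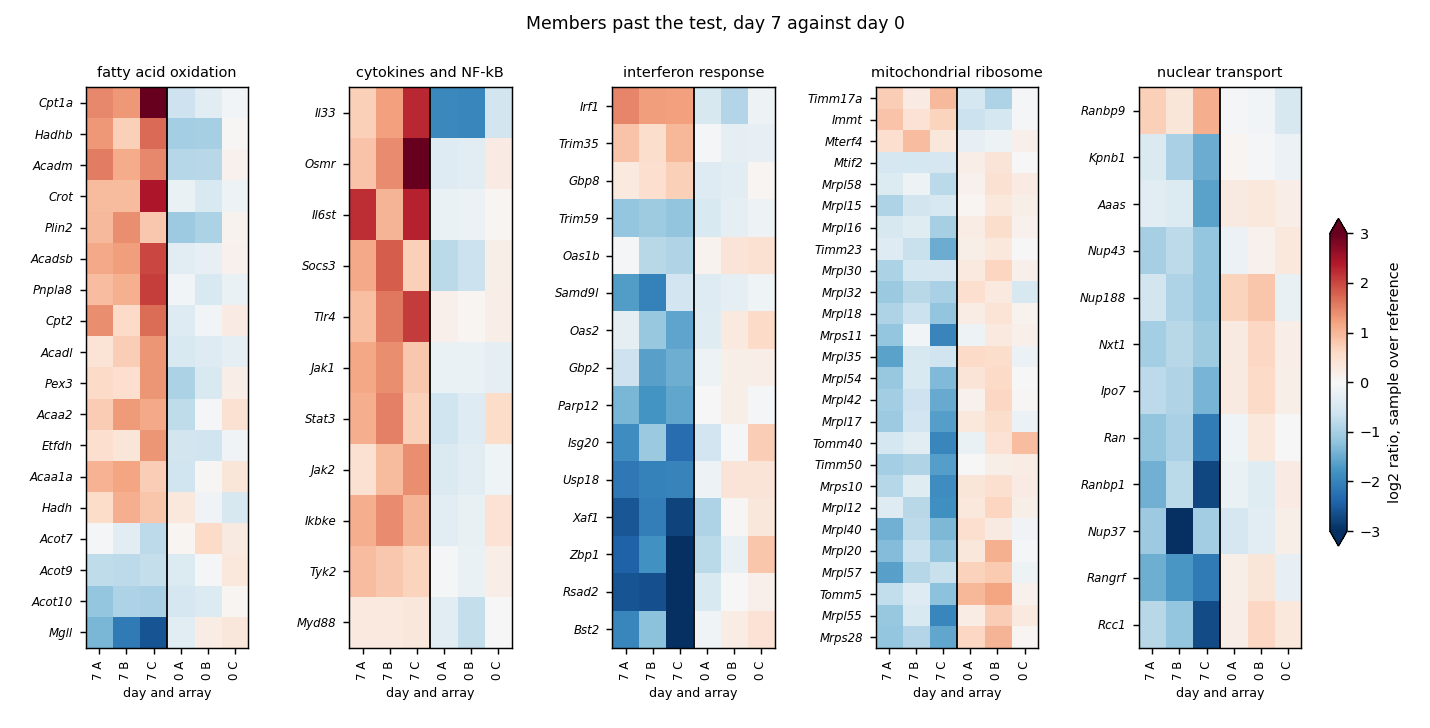
Log2 ratios of sample over reference (colour) on the day 7 arrays A, B and C and, right of the black line, day 0 arrays A, B and C, for members past the test against day 0 with a value on all 6 arrays in 5 lists. Day 0 arrays A and B carry colour opposite to day 7 in fatty acid oxidation and the mitochondrial ribosome, as with Hadhb at -1.03 and -0.999, and are paler in the interferon response, as with Usp18 at -0.15 and 0.38.

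Many transcripts of the nucleolus and of nucleotide supply fell. Ribosome biogenesis takes place in the nucleolus and draws on both. Of 84 transcripts of ribosome biogenesis tested (93 on the array) 26 fell and 1 rose, with a median of -0.52, and 24 and 1 also passed against zero. Ddx21, a nucleolar helicase, stood at -0.97, -1.50 and -1.31 at day 7, against 0.60, 0.80 and 0.05 at day 0, and Noc2l, a nucleolar repressor of histone acetylation, at -0.70, -1.31 and -1.99 against 0.36, 0.55 and 0.29. Nhp2, of the RNA-guided pseudouridine synthase, fell by 1.84 ± 0.42. The only member that rose was Pop4, a subunit of RNase P and MRP, by 2.10 ± 0.64, while 2 of its 7 tested partner subunits fell. None of the list rose without day 0 array A or B. By a subgroup named after the values were seen, 4 of 5 subunits of the RNA exosome fell. Of the 26 that fell 8 were past all 3 readings, and with 1 array left out 17 (without day 0 array B) to 31 fell. Set against zero, the day 7 arrays averaged -1.26 for Ddx21, -1.33 for Noc2l, -1.36 for Nhp2 and 1.95 for Pop4.

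Of 32 transcripts of nucleotide synthesis tested (43 on the array) 15 fell and 4 rose, with a median of -0.66. Tk1, the thymidine kinase, stood at -1.54, -1.004 and -3.70 at day 7, against -0.47, 0.05 and 0.74 at day 0. The paralogous CTP synthases went opposite ways: Ctps fell by 1.89 ± 0.35 and Ctps2 rose by 1.68 ± 0.28. Ctps stood at -0.64, -1.40 and -2.18 on day 7 arrays, against 0.54, 0.61 and 0.28 on day 0 arrays. Ctps2 stood at 1.05, 1.10 and 1.59 on day 7 arrays, against -0.58, -0.71 and -0.01 on day 0 arrays. Both calls held against zero, neither passed with the day 0 sign turned, and both genes moved away from the reference by day 1, to -0.81 and 0.95. A like pair, chosen after its values were seen, was Rrm2b, the p53-induced subunit of ribonucleotide reductase, which rose by 0.99, against Rrm1, which fell by 0.87. Of the 15 that fell 14 passed against zero and 7 were past all 3 readings, and 8 fell without day 0 array B or day 7 array C. Of the 4 that rose 0 were past all 3 readings, and 2 rose without day 0 array B or C or day 7 array B or C. Relative to the reference, day 7 stood at -2.08 for Tk1, -1.41 for Ctps, 1.25 for Ctps2, 0.69 for Rrm2b and -0.91 for Rrm1.

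Nuclear transport transcripts followed. Of 38 tested (45 on the array) 11 fell and 1 rose, all 12 also against zero and 6 of the falls past all 3 readings. Members of the Ran cycle, which gives transport its direction, were among them: Rcc1, the exchange factor of Ran, fell by 1.94 ± 0.43, Rangrf by 1.87 ± 0.27 and Ranbp1 by 1.56 ± 0.52. Rcc1 stood at -0.83, -1.17 and -2.67 on day 7 arrays, against 0.19, 0.63 and 0.32 on day 0 arrays. With 1 array left out 8 to 12 fell, and 0 rose without day 0 array C or day 7 array C. Of 58 cytoplasmic ribosomal protein transcripts 8 fell (13.8%), near the 11.1% among all genes, and 0 rose. Past all 3 readings were 2 of the 8. Only 2 fell without day 0 array B or day 7 array A, 3 when day 0 array A was left out and 4 when day 7 array C was. Without day 0 array C 14 fell, and without day 7 array B 13. Of 116 splicing transcripts 18 fell (15.5%) and 8 rose (6.9%), against 11.1% and 16% among all genes. Snrpd1, a core protein of spliceosomal particles, stood at -2.27 ± 0.47 and the kinase gene Clk1 at 1.76 ± 0.34. Without day 7 array C 9 splicing transcripts fell, and without day 0 array A or B 10. Only 2 splicing transcripts rose without day 0 array A or B, 4 without day 7 array C and 5 without day 7 array A, and 4 fallers and 0 risers were past all 3 readings. Measured from the reference zero, day 7 means were -1.56 for Rcc1, -1.77 for Rangrf, -1.67 for Ranbp1, -1.87 for Snrpd1 and 1.26 for Clk1.

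Many transcripts of DNA replication and mitosis fell, most of these past all 3 readings. Of 92 mitotic transcripts tested (107 on the array) 45 fell and 1 rose, with a median of -0.86; 44 of the falls passed against zero and 34 were past all 3 readings. Kif23, a kinesin of the dividing cell's midzone, stood at -1.54, -2.00 and -2.28 on day 7 arrays, against -0.04, 0.13 and 0.00 on day 0 arrays. Ube2c, the ubiquitin-conjugating enzyme of the anaphase-promoting complex, stood at -1.68, -1.19 and -2.50 at day 7 and at 0.56, 0.75 and 0.09 at day 0. Kif23 stood near the reference at day 1 and averaged -0.16, -1.51, -1.90, -1.37, -1.42, -1.93 and -1.94 over days 1 to 7. The only mitotic member that rose was Zwint, a kinetochore protein, by 1.96 ± 0.32, at 1.27, 1.30 and 1.57 on day 7 arrays against -0.85, -0.97 and 0.08 on day 0 arrays. It passed against zero but not with the day 0 sign turned. Of 54 replication transcripts 20 fell and 0 rose, 11 past all 3 readings, with Mcm5, a subunit of the replicative helicase, at -1.99 ± 0.30 and Cdc6, which loads it, at -2.16 ± 0.34. Leaving out 1 array left 29 (without day 0 array B) to 38 mitotic and 13 (without day 7 array C) to 22 replication transcripts that fell. At day 7 the mean against zero was -1.79 for Ube2c, -1.54 for Mcm5, 1.38 for Zwint and -1.62 for Cdc6.

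Promoters of Ube2c and Kif23 are shown because genes of late cell cycle phases often carry a CHR element, TTTGAA, and CCAAT boxes. Both motifs were searched on both strands and stand in capitals, and in Ube2c a pair of CCAAT matches on opposite strands overlaps. The sequences are RefSeq's on GRCm38.p6.
Ube2c promoter, chr2:164769679-164769978 (+ strand): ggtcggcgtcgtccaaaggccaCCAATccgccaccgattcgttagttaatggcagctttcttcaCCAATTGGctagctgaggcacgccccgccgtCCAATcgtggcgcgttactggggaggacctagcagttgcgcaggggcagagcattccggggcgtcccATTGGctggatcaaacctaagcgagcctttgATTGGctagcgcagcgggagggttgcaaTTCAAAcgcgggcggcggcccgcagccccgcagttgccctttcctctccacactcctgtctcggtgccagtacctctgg
Kif23 promoter, chr9:61946750-61947049 (- strand): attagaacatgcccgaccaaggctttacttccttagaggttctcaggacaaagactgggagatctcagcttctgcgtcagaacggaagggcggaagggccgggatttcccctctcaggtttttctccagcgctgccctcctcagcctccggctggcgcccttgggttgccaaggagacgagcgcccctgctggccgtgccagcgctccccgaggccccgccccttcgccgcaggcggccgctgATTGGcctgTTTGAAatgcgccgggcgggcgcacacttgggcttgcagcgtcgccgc
Of 37 promoters of mitotic genes that fell, with values on all 6 arrays, 18 held TTTGAA (48.6%) and 26 held CCAAT (70.3%). Of all 32851 promoters 5878 (17.9%) and 12289 (37.4%) did. The promoter of Cks2, at -3.03 against day 0 and -2.14 against zero, held 4 CCAAT matches but no TTTGAA.

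Of 40 genes tied to arrest of the cell cycle 14 rose and 7 fell, all of them also against zero, and 10 risers were past all 3 readings. Btg1, which slows proliferation through mRNA decay, stood at 1.79, 2.25 and 2.60 at day 7, against -0.25, -0.72 and -0.27 at day 0. Klf9, a repressor of the Krüppel-like family, rose by 2.54 ± 0.35 and Txnip, the inhibitor of thioredoxin, by 2.31 ± 0.54, while Klf5, a family member tied to proliferation, fell by 2.15 ± 0.38. Myc stood at -0.90 ± 0.38 (adjusted p = 0.0837) and did not pass. With 1 array left out 11 to 13 rose, and 4 fell without day 0 array A or B or day 7 array C. Day 7 means against zero were 2.21 for Btg1, 2.00 for Klf9, 1.99 for Txnip, -1.66 for Klf5 and -0.60 for Myc. Myc did not pass against zero either.

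Cytoskeletal and adhesion genes fell more often than they rose, with exceptions by subfamily. Of 72 actin cytoskeleton transcripts tested (92 on the array) 20 fell and 12 rose, 18 and 10 also against zero, and 9 and 3 past all 3 readings. Tmsb4x stood at -2.28, -1.78 and -3.01 on day 7 arrays, against -0.28, 0.25 and 0.52 on day 0 arrays. Its fall was gradual, with means of -0.27, -1.03, -1.62, -2.37, -2.32, -2.85 and -2.36 over days 1 to 7. By subgroups named after their values were seen, 5 of 11 myosin chains fell and 2 rose, 2 of 4 tropomyosins fell, and 3 of 6 subunits of the Arp2/3 complex, which branches actin filaments, rose and 0 fell. Lsp1, an actin-binding protein known from leukocytes, stood at 0.80, 2.82 and 0.91 at day 7, against -1.42, -1.34 and -0.20 at day 0. Of 38 integrin and adhesion transcripts 10 fell and 3 rose, with Cav1, of caveolin-1, at -2.03, -2.40 and -2.55 at day 7 against -0.06, -0.11 and -0.06 at day 0. Of 21 Hippo pathway transcripts 5 fell and 3 rose: Amotl2, a target of this pathway, fell by 2.05 ± 0.35 and its relative Amot rose by 1.53 ± 0.48. Past all 3 readings were 1 faller, Amotl2, and 0 risers, and 2 fell without day 0 array A or B (3 without day 7 array B or C). With the day 0 sign turned Amot stood at 0.92 (adjusted p = 0.236, limma), and its call was also lost without day 0 array B or C or day 7 array C. Of 36 junction and polarity transcripts 6 rose (16.7%) and 5 fell (13.9%), near the shares of 16% and 11.1% among all genes. The apical polarity genes Crb2 and Crb3 stood at -1.83 ± 0.45 and -1.37 ± 0.32 and the beta-catenin gene Ctnnb1 at 1.89 ± 0.32. Only 3 rose and 3 fell without day 0 array A or B, and 2 and 2 were past all 3 readings, Crb2 among them and Crb3 and Ctnnb1 not. Fewest actin transcripts fell, 11, when day 0 array B was left out (12 when day 7 array C was). Fewest actin transcripts rose, 6, also without day 0 array B, and 7 rose without day 0 array A or day 7 array B or C, while 6 adhesion transcripts fell without day 0 array A or B. Set against zero, the day 7 arrays averaged 1.51 for Lsp1, -2.33 for Cav1, -1.91 for Amotl2, 1.22 for Amot, -1.68 for Crb2 and -1.04 for Crb3. Relative to the reference, day 7 stood at 1.43 for Ctnnb1.

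Transporters were more often higher. Of 83 solute carriers tested (139 on the array) 26 rose and 6 fell, with a median of 0.35, and 21 and 5 also passed against zero. Slc7a1, the carrier of arginine and lysine, fell by 1.96 ± 0.27, at -1.61, -1.92 and -1.78 on day 7 arrays against 0.37, 0.38 and -0.18 on day 0 arrays. Slc66a2, Slc30a4 (which moves zinc out of the cytosol) and Slc25a36 (which carries pyrimidine nucleotides into mitochondria) rose by 1.65, 1.64 and 1.48. The copper carrier gene Slc31a1 rose by 1.16 ± 0.28 and the copper pump gene Atp7a by 1.21 ± 0.28. Abca1, the exporter of cholesterol and phospholipid, stood at 1.06, 1.97 and 2.53 at day 7, against -0.35, -0.86 and -0.49 at day 0, and Abcc3, an exporter of bile acids and glucuronides, at -1.16, -1.59 and -1.69 against 0.48, 0.48 and -0.10. Abca1 thus lay above and Abcc3 below the reference on every day 7 array. Past all 3 readings were 6 solute carriers that rose and 2 that fell, and fewest rose, 12, without day 0 array B (14 when day 0 array A was left out and 16 when day 7 array C was). Fewest fell, 3, without day 0 array B. Measured from the reference zero, day 7 means were -1.77 for Slc7a1, 1.22 for Slc66a2, 1.47 for Slc30a4, 1.03 for Slc25a36, 0.88 for Slc31a1 and 1.02 for Atp7a. The day 7 arrays averaged 1.85 for Abca1 and -1.48 for Abcc3 against zero.

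Of 33 genes of drug metabolism tested (60 on the array) 11 rose and 4 fell. Xdh, the xanthine oxidoreductase of purine breakdown, stood at 1.502, 1.24 and 2.11 at day 7, against -0.29, -0.59 and -0.09 at day 0. Maoa, a monoamine oxidase, stood at 1.06, 1.02 and 1.00 at day 7, against -1.41, -1.41 and -0.16 at day 0. Its rise of 2.02 ± 0.43 thus came to 49.2% from day 0, and it stood at 0.03 with the day 0 sign turned. Dhrs3, a retinaldehyde reductase, rose by 2.67 ± 0.53 and Aldh1a1, a retinaldehyde dehydrogenase, fell by 2.03 ± 0.35. Of the 11 that rose 1 was past all 3 readings, Xdh, and 5 rose without day 0 array A (6 when B was left out instead). Of 42 redox genes 9 rose and 6 fell, 4 and 4 past all 3 readings, and 5 rose and 2 fell without day 0 array B. Against the zero of the reference, day 7 means were 1.61 for Xdh, 1.03 for Maoa, 1.79 for Dhrs3 and -1.69 for Aldh1a1.

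Among signalling lists, 8 of 26 TGF-beta and BMP genes rose and 3 fell, 3 and 2 past all 3 readings, and 5 rose without day 0 array A or C or day 7 array A. The antagonist genes Fst and Fstl1 fell by 1.76 ± 0.29 and 1.11 ± 0.37, and Smad5, which carries BMP signals, rose by 1.14 ± 0.24, a call lost with the day 0 sign turned. Chosen after their values were seen, Smad1 and Smad3 rose by 1.00 and 1.06 and the receptor genes Acvr1, Acvr1b and Tgfbr2 by 1.01, 1.08 and 0.88. Of 22 growth factor and receptor genes 7 rose and 1 fell, among the risers Fgfr1 by 1.71 ± 0.42 and Gfra1 by 1.83 ± 0.42, and 4 rose without day 0 array A or B or day 7 array B or C. Of 47 MAP kinase genes 8 rose (17%) and 4 fell (8.51%), near the shares of 16% and 11.1% among all genes. Rasa3, which switches off Ras, stood at 2.09 ± 0.27 and Spred1, an inhibitor of the same pathway, at 1.43 ± 0.23. Only Rasa3 was past all 3 readings, 5 rose without day 0 array B, and 2 fell without day 0 array A or B. Of 61 G protein signalling genes 12 rose (19.7%) and 5 fell (8.2%), also near those shares, with Rgs2, which shortens such signals, at 1.87 ± 0.42. Past all 3 readings were 7 risers and 0 fallers, and 1 fell without day 0 array A or B (2 without day 7 array A or C). Of 11 circadian genes 1 rose, Arntl, by 0.73 ± 0.23, a call lost without any 1 of the day 0 arrays or day 7 array C and with the day 0 sign turned (adjusted p = 0.135, limma). Day 7 means against zero were -1.97 for Fst, -1.48 for Fstl1, 0.73 for Smad5, 0.98 for Smad1, 1.03 for Smad3, 0.74 for Acvr1 and 0.92 for Acvr1b. Set against zero, the day 7 arrays averaged 0.63 for Tgfbr2, 1.56 for Fgfr1, 1.32 for Gfra1, 1.88 for Rasa3, 1.05 for Spred1 and 2.12 for Rgs2. Relative to the reference, day 7 stood at 0.63 for Arntl.

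Other lists near or below the background included those of chromatin, transcription factors, the ubiquitin system and chaperones. Of 150 chromatin genes 21 rose (14%) and 14 fell (9.33%), among them Smarca2, the BRM ATPase of SWI/SNF complexes, at 2.10, 1.75 and 3.32 on day 7 arrays against -0.41, -0.46 and 0.03 on day 0 arrays, and Ruvbl2 at -1.97 ± 0.69. Of 183 genes of transcription factor families 25 rose and 16 fell (13 rose without day 0 array B or day 7 array C, and 6, 8 and 9 fell when day 0 array B, day 0 array A or day 7 array C was left out), and of 12 liver transcription factors 1 rose, Gata6, by 1.45 ± 0.38, a call lost without day 0 array B. Without day 0 array A or B 9 chromatin genes rose, and without day 7 array C 10, while 7 fell without day 7 array C and 8 without day 0 array B. Of 196 ubiquitin system genes 34 rose and 12 fell, with 21 risers without day 0 array A or B, and of 73 chaperones 5 rose and 6 fell. No chaperone gene fell without day 0 array B or day 7 array C, and 3 rose without day 0 array B and 8 without day 7 array B. Of 26 genes of sterol and fatty acid synthesis 3 rose and 2 fell, with Insig2, which retains the sterol sensor in the endoplasmic reticulum, at 1.60 ± 0.20 and Acaca, acetyl-CoA carboxylase, at -0.68 ± 0.21, and 0 fell without day 0 array B. Measured from the reference zero, day 7 means were 2.39 for Smarca2, -1.66 for Ruvbl2, 0.85 for Gata6, 1.42 for Insig2 and -0.65 for Acaca.

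Of 10 basement membrane genes 0 passed in either direction in limma, and 0 had an unadjusted p under 0.05. Col4a1, of type IV collagen, stood at 0.57, -0.35 and -1.31 on day 7 arrays, against -0.22, -0.16 and 0.16 on day 0 arrays (-0.29 ± 0.56, adjusted p = 0.724, limma). Lamb1, a laminin chain, stood at 0.71 ± 0.45 (adjusted p = 0.249, limma) and Sparc, which binds type IV collagen, at -0.58 ± 0.56 (adjusted p = 0.465, limma). Vim, the intermediate filament gene of mesenchymal cells, stood at 0.69 ± 0.42 (adjusted p = 0.225). Alb and Krt19 could not be tested here. At day 7 the mean against zero was -0.37 for Col4a1, 0.78 for Lamb1, -0.64 for Sparc and 0.32 for Vim. None of Col4a1, Lamb1, Sparc and Vim passed against zero.

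The 8 largest changes against day 0 that did not pass against zero are described next. Choosing large changes with a day 7 mean that fails against zero favours day 0 values on the other side of it. Il33 stood at 0.70, 1.24 and 2.25 on day 7 arrays, against -1.95, -1.97 and -0.56 on day 0 arrays, so day 0 carried 51.6% of its rise of 2.89 ± 0.79, and its day 7 mean of 1.40 missed the threshold against zero (adjusted p = 0.0596). Its mean had been 3.21 at day 1 and 2.37 at day 2. Yipf5, a protein of early Golgi traffic, stood at 0.54, 0.57 and 0.62 at day 7, against -1.59, -1.34 and -0.11 at day 0. Its day 7 arrays agree closely, and with the day 0 sign turned the difference became -0.44. Cavin2, of the coat of caveolae, stood at -0.25, -1.17 and -0.53 at day 7, against 1.19, 1.47 and -0.11 at day 0. Cyp2s1, a cytochrome P450, stood at 0.09, -1.54 and -1.64 at day 7 and at 0.96, 1.14 and 0.12 at day 0, so that its nearest arrays all but met. Synpo, Pfdn6, Psme3 and Poglut2 changed by 1.81, -1.61, -1.44 and 1.43 with day 7 means of 1.11, -0.97, -0.83 and 0.75. In all 8 genes day 0 arrays A and B lay on the side of zero opposite to the day 7 mean, as this choice favours, and array C was nearest to zero. Against the zero of the reference, day 7 means were 0.58 for Yipf5, -0.65 for Cavin2 and -1.03 for Cyp2s1.

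**Figure D5:**
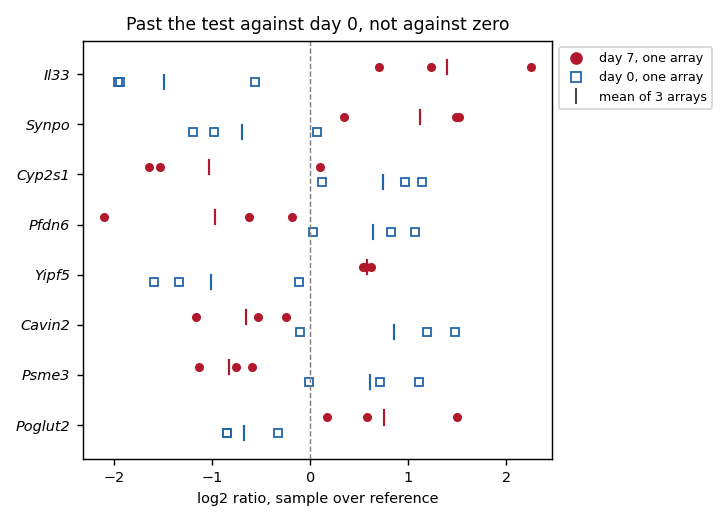
Log2 ratios of sample over reference on each array for the 8 genes with the largest change against day 0 that did not pass against zero, with filled circles for day 7, open squares for day 0 and a bar for each mean of 3. Day 0 lies off the dashed zero line on arrays A and B, as in Yipf5 at -1.59 and -1.34.

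Day 7 was last set against days 4 to 6, the 9 arrays nearest in time, in a contrast that holds no day 0 array. No unit of 10639 passed (0%; limma), with 306 units at an unadjusted p under 0.05, 179 of them genes. A p that misses the threshold does not show that these days were alike.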

How the data were processed

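Samples were hybridised as 2-colour arrays from amplified RNA, per the labels' protocols, with Cy5 on the sample and Cy3 on the undifferentiated reference. The authors deposited 1 table of the whole series whose values are here read as log2 ratios of sample over reference. Not given in the sources used here are the scanner, background correction, normalization, base and numerator of the ratio, and the reason for empty cells. With no depth in array data, the number of arrays limits the precision.

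Each array was centred on its median. Probes were named from GEO's platform annotation with symbols updated through RefSeq: 13319 of 24157 features had 1 symbol, 589 had several genes and 10249 were not listed. Features of one symbol were averaged, and other features were kept as units of their own. Units with at least 2 values on every one of the 8 days were tested (10639, of them 5660 genes; 2870 of these had more than 1 feature). A linear model of the 8 days was fitted over all 24 arrays with limma 3.58.1 in R 4.3.3, with statmod 1.5.0, and p-values were adjusted by Benjamini-Hochberg over all units. Errors are limma's standard errors unless named otherwise. Tables and plots were made with Python 3.11.15, pandas 2.3.3, numpy 2.4.6 and matplotlib 3.10.9. The script was tested on simulated data: against day 0, 26% of changes of 1 and 90% of changes of 2 (log2) were recovered among 200 changed units of 10639, with 8 false calls.

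Genes named are up to 4 of the largest called changes of each list, those at ranks 9 to 24 in each direction, the largest changes that did not pass against zero, and a few fixed genes; others are said to be chosen after their values were seen. Members and lists were chosen with earlier results of these data known, and some list definitions were corrected after values were seen, so list counts are descriptions. Lists were drawn by patterns of gene names, so some also hold genes of other functions. Alternatives covered the arrays fitted, centring, scaling, the filter on empty cells, the averaging of features, the sign of day 0 arrays, a block for array letters, array weights, the moderation and leaving out each array. Deviations of same-letter arrays of day 7 and day 0 correlated at -0.218, -0.00504 and -0.223 over 9349 units, so letters were not taken to pair arrays.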

Additional observations from a re-analysis of the deposited data

How the results depend on the processing

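Without 1 of the 6 arrays, 1616 to 3100 units passed against day 0 (926 to 1579 higher, 690 to 1521 lower), 2353 to 3778 against zero and 1594 to 2474 both. The lowest counts came when day 0 array B was left out (1616, 926, 690 and 1594), or, against zero, day 7 array C (2353; 864 lower against day 0 and 1680 both); leaving out day 0 array A gave 1874. With only the day 0 and day 7 arrays fitted, 1607 passed (924 higher, 683 lower) and 1500 both. With every day 0 array's sign turned, 1230 passed (619 higher, 611 lower) and 1182 both, and 938 of the 2940 calls were kept. With it Cavin2 stood at 0.20, Csnk1a1 at -0.0171, Il33 at -0.094, Psmg2 at 0.0225 and Yipf5 at -0.44, the opposite side of zero. Array weights gave 5182 (2587 higher, 2595 lower) and kept 2894 of the calls. Among units with a value on all 24 arrays, where fewer units were tested, 846 fell. A replicate block for the array letters gave 3660 units over all days and, with only the day 0 and day 7 arrays, 658 (389 higher, 269 lower), 1718 against zero and 648 both. The letters share only a letter, and the cause of these shifts was not tested. Without centring, with arrays scaled to a common spread, with medians of features, single features, a looser filter, day 0 array C turned, the C arrays of days 4 to 7 left out or trended robust moderation, counts stayed within 1.5 times of those reported. Scaling left 53.2% of calls higher, against 52.8%, and 60.5% also past zero, against 89.8%, both shares of tests that have the day 7 arrays in common. Day 7 against days 4 to 6 gave 0 under each alternative that could be run for it.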
